A study of Mus musculus with 4 samples.

Results

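The 10 genes described here encode proteins by which fat cells store lipid, release hormones or produce heat: Adipoq, Cfd, Fabp4, Cidec, Plin1, Plin4, Lpl, Pparg, Car3 and Ucp1. They were taken by symbol from a table of 22609 genes, and they were chosen by the measured levels of this same comparison, after fat cell genes were seen to be lower in the mutant libraries. The differences between genotypes given for them are therefore a description, with no test. The table holds read counts of polyadenylated RNA from whole testes of mice at postnatal day 3, on a C57BL/6J dominant background, in 4 libraries. Of these, 2 carry the label of a wild-type thyroid hormone receptor alpha 1, and the other 2 that of a dominant-negative form, which opposes the normal receptor. The mice came from crosses of AmhCre animals, whose Cre recombinase is driven by the promoter of a Sertoli cell gene, with heterozygous TRαAMI animals. The series restricts the mutation to Sertoli cells, the somatic cells that nurse germ cells. The labels do not say whether the wild-type libraries carried either allele, nor whether the libraries stem from different animals. A p-value then measures only the spread between these libraries, which may be technical.

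Fat cells keep triglyceride in lipid droplets that are coated by perilipins and enlarged by CIDE proteins, and they take up fatty acids that lipoprotein lipase frees in the blood vessels. PPAR gamma, the nuclear receptor that drives fat cell formation, switches on many of these genes. Few of them belong to fat cells alone. Leydig cells, which make steroids, coat their cholesterol ester droplets with perilipins, endothelial cells and macrophages also use Fabp4, and skeletal muscle makes Lpl and Car3.

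Gene counts ranged from 10230512 to 15636832 per library. Levels below are counts per 1000000 gene counts (CPM), scaled for library composition. The pair of libraries of a genotype is given with replicate 1 first. Thra, the gene of the engineered receptor, had 257 to 398 CPM in the wild-type pair and 194 to 237 CPM in the mutant pair, which cannot check the labels because counts do not separate the alleles. By edgeR's quasi-likelihood test with Benjamini-Hochberg adjustment, 5.67% of 14788 tested genes were called, that is had an adjusted p below 0.05, with 2.52% lower and 3.15% higher in mutant. The summed level of 10 skeletal muscle markers was 20.4 and 21.7 CPM in the wild-type pair but 2193 and 577 CPM in the mutant pair.

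The members did not form a single group. Adipoq, Cfd, Fabp4 and Cidec were far lower in both mutant libraries, Pparg was lower by a smaller factor, Plin1 and Lpl differed little, and Plin4 and Car3 were higher. Of the 9 members that passed the expression filter, 4 were called lower and none higher, against 2.52% and 3.15% of all genes; genes that were both called and over 2-fold lower, as these 4 were, made up 1.03% of all genes. Since the same contrast chose the members, nothing is read from these counts. The median log2 fold change of the 9 was -1.35, also with Cfd at its bound, against -0.01 over all tested genes. The groups did not overlap in 8 of the 9, with 6 lower and 2 higher in mutant. Over all tested genes, 29% were lower without overlap and 28.3% higher. Fits that leave 1 wild-type library lose most calls over all genes, so a call lost there is not particular to a gene. Without wild-type replicate 1, or without wild-type replicate 2, Fabp4 was the only member called. In bulk tissue, fewer cells of a type and less RNA per cell cannot be told apart.

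The adipokines were at low levels in wild type and close to nothing in mutant testes. Adipoq encodes adiponectin, a hormone made by fat cells (chromosome 16, 23146609 to 23158101, plus strand, mm9). It had 37 and 63 counts in the wild-type pair and 3 and 4 counts in the mutant pair. These are 2.78, 6.18, 0.273 and 0.255 CPM in that order. Both mutant libraries lay far below both wild-type libraries, although the wild-type pair itself was spread. The ratio of summed counts, wild type over mutant, was 16.2 (95% interval 7.57 to 41.3); this and the intervals below cover counting error only. Cfd encodes adipsin, complement factor D, the protease that starts the alternative complement pathway and is made mainly by fat cells (chromosome 10, 79353598 to 79355401, plus strand). It had 13 and 11 counts in wild type and none in either mutant library. Set against 3 counts over the group, the level was at least 9.07-fold higher in wild type, taking the wild-type counts as exact; with their counting error, the 95% interval of the ratio began at 6.82.

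The lipid-binding members were lower by unequal factors. Fabp4, the fatty acid-binding protein of fat cells (chromosome 3, 10204347 to 10208576, minus strand), read 50.5 and 52.2 CPM in the wild-type pair and 12.4 and 8.75 CPM in the mutant pair. The wild-type libraries lay close together, and both mutant libraries lay far below them. The log2 fold change was -2.30 ± 0.17 (SE), a 4.94-fold lower level in mutant (51.4 ± 1.26 against 10.6 ± 2.57 CPM, SD, n = 2 each). Cidec, which fuses lipid droplets into large ones (chromosome 6, 113374628 to 113385754, minus strand), had 20 and 18 counts in wild type and 0 and 1 in the mutant pair. Its count ratio, wild type over mutant, was 43.1 (95% interval 7.28 to 1745), so the size of the difference is known only as a wide range. Adipoq, Cidec and Cfd passed the expression filter through their wild-type counts alone and so could pass it only by being lower in mutant.

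**Figure D1:**
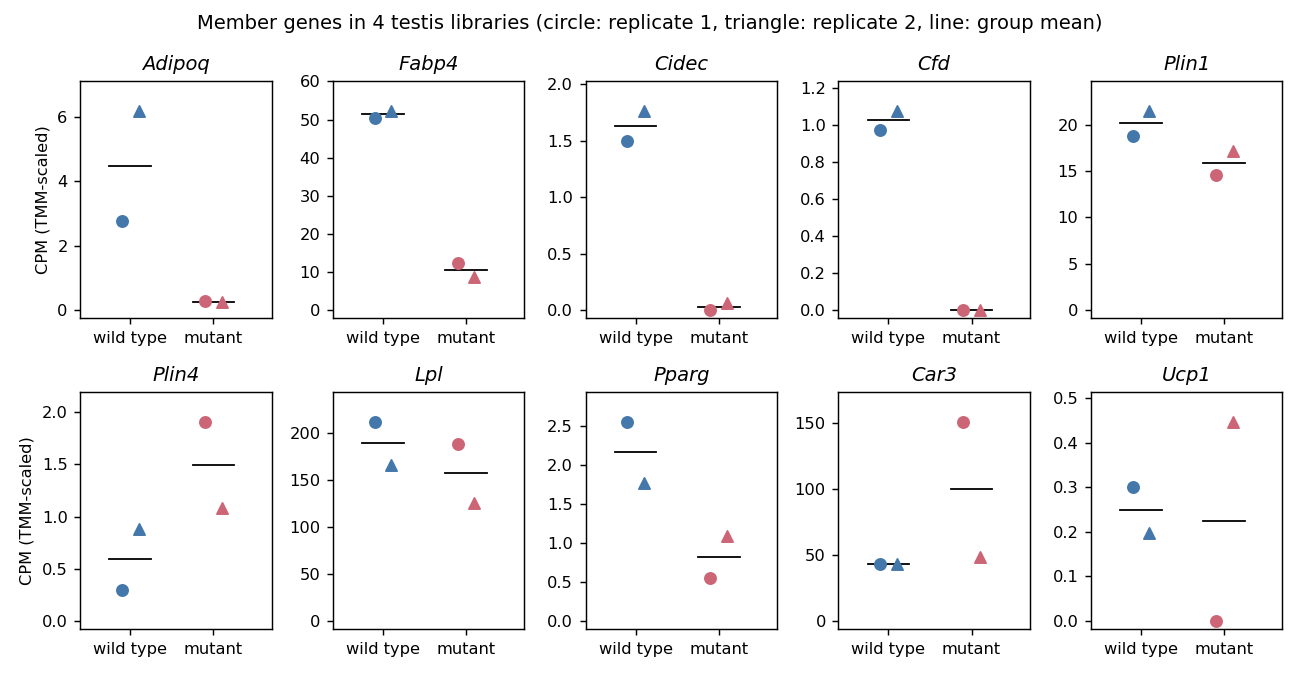
Each panel plots the CPM of 1 member gene on a linear axis from 0, in wild-type (blue) and mutant (red) testes; circles are replicate 1, triangles replicate 2 and lines group means. Adipoq, Fabp4, Cidec and Cfd sit near the bottom of their panels in both mutant libraries, while Car3 is raised to 151 CPM in mutant replicate 1 and stands at 48.4 CPM in mutant replicate 2.

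Promoter entries of RefSeq (build GRCm38.p6, 250 bases before to 50 after a start) existed for 7 of the members, with 10 starts; Fabp4, Lpl and Car3 had none. The 250 bases before the start are shown for the 3 lower members with an entry (for Cidec, the start whose window held a motif) and for Plin1, which differed little, so that their upstream sequence can be compared. They run 5′ to 3′ on the gene's strand, and capitals mark any of 6 motifs searched on both strands of the whole window: the nuclear receptor hexamer AGGTCA, its direct repeats DR1 and DR4 with 1 or 4 bases between the hexamers, the C/EBP core TTGCNNAA, the TATA box TATAAA and the CCAAT box.
Adipoq (chr16:23146286-23146535, plus strand): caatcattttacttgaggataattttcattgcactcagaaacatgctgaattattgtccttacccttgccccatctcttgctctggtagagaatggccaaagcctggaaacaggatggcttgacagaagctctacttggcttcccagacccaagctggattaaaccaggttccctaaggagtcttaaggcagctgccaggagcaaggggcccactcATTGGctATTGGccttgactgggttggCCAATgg
Cfd (chr10:79890603-79890852, plus strand): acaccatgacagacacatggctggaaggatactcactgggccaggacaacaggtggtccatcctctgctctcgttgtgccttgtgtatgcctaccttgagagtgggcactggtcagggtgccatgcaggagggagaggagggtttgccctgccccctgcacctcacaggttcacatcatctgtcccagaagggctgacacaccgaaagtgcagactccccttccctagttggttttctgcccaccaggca
Cidec (chr6:113434765-113435014, minus strand): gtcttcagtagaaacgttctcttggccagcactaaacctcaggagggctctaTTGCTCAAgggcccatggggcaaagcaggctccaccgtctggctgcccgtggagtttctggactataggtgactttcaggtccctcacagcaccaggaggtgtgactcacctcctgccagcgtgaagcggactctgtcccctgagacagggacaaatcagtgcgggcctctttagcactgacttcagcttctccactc
Plin1 (chr7:79732777-79733026, minus strand): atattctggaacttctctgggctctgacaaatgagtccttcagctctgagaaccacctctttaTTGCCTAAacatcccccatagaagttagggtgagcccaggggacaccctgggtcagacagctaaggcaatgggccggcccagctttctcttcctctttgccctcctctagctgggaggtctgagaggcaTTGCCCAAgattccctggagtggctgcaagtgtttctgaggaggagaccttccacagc
Each repeat contains the hexamer. Neither repeat was found in any member window, and they occur in 0.0396% and 0.0152% of 32851 promoter windows. The hexamer was found in 3 of the 10 member windows, 2 of Pparg and 1 of Ucp1, against 16.3% of all windows, and in none of Adipoq, Cfd or Cidec. The C/EBP core was in 3 windows, of Cidec, Plin1 and Pparg, against 10.8% of all. The window of the other Cidec start, not shown, held none of the 6 motifs. The CCAAT box was in 4 windows, of Adipoq, Plin4 and Pparg, against 37.4%, and the TATA box in 1, of Pparg, against 13.6%. Adipoq, Cfd and Cidec thus shared none of these motifs in the windows searched; a match is not a binding site, and the absence of one says nothing about a factor.

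Pparg, the receptor at the head of the fat cell programme (chromosome 6, 115311239 to 115440419, plus strand), had 34 and 18 counts in the wild-type pair and 6 and 17 in the mutant pair. In CPM these were 2.55 and 1.76 against 0.546 and 1.09. The groups did not overlap, but the libraries of each group were spread, and the log2 fold change of -1.35 ± 0.45 (SE) was not called. Plin1, the perilipin of fat cell droplets (chromosome 7, 86866050 to 86877662, minus strand), read 18.8 and 21.5 CPM in the wild-type pair and 14.6 and 17.1 CPM in the mutant pair. The groups lay close together without overlap, at a log2 fold change of -0.33 ± 0.17 that was not called. Lpl, the lipase that fat, muscle and macrophages export to vessel walls (chromosome 8, 71404390 to 71431347, plus strand), read 213 and 166 CPM in the wild-type pair, 189 and 126 CPM in the mutant pair. The groups overlapped at a log2 fold change of -0.27 ± 0.19. Lpl passed the test at -0.59 without mutant replicate 1 and stood at -0.01 without mutant replicate 2.

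Car3 and Plin4 were higher in mutant testes, and Car3 differed strongly between the mutant libraries. Car3, a carbonic anhydrase abundant in fat and in slow skeletal muscle (chromosome 3, 14863538 to 14872351, plus strand), read 42.8 and 43.3 CPM in the wild-type pair, but 151 and 48.4 CPM in the mutant pair. The wild-type libraries were nearly equal, and mutant replicate 2 lay just above them. The log2 fold change of 1.20 ± 0.42 (SE) was not called; it was 0.17 without mutant replicate 1 and passed the test at 1.81 without mutant replicate 2. Muscle transcripts stood in the same order: Acta1, the skeletal actin gene, read 0.601 and 0.686 CPM in the wild-type pair, then 875 and 222 CPM in the mutant pair. The part of muscle RNA in the Car3 value was not tested. Plin4, a perilipin of fat and striated muscle (chromosome 17, 56240014 to 56249225, minus strand), had 4 and 9 counts in wild type and 21 and 17 in mutant testes. It passed the expression filter through its mutant counts alone and so could pass it only by being higher there. Its log2 fold change of 1.35 ± 0.60 was not called and went to 0.69 without wild-type replicate 1, to 0.96 without mutant replicate 1 and to 2.22 without wild-type replicate 2. The annotated end of Plin4 overlaps Hdgfrp2 on the other strand, and the strand setting of the counting is not given in the sources used here. Ucp1, the uncoupling protein by which brown fat makes heat (chromosome 8, 85814247 to 85822355, plus strand), had 4 and 2 counts in the wild-type pair, then 0 and 7 in the mutant pair. It did not pass the filter, and its count ratio of 0.971, wild type over mutant (95% interval 0.270 to 3.38), leaves a difference in either direction within counting error.

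Per kilobase of annotated exon, the order of the members changed between the genotypes. In wild type the mean level was 80.6 CPM per kilobase for Fabp4, 28.6 for Car3, 27.8 for Lpl, 10.5 for Plin1, 3.24 for Adipoq, 1.11 for Cfd, 1.09 for Pparg, 0.880 for Cidec, 0.151 for Ucp1 and 0.103 for Plin4. Car3 and Lpl, Cfd and Pparg, Pparg and Cidec, and Ucp1 and Plin4 overlapped between their libraries. In mutant testes Car3 led with 66.2 CPM per kilobase, ahead of Lpl with 23.1 and Fabp4 with 16.6. Plin1 followed with 8.26, then Pparg with 0.411, Plin4 with 0.260, Adipoq with 0.191, Ucp1 with 0.136 and Cidec with 0.0172, while Cfd was at 0. In mutant testes Lpl and Fabp4, Pparg and Plin4, Plin4 and Adipoq, and Ucp1 with Plin4, Adipoq and Cidec overlapped between their libraries. Cfd, Cidec and Ucp1 were all at 0 in mutant replicate 1. Fabp4 thus went from first to the third place. Exon lengths join all annotated isoforms, so these levels are approximate.

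The levels of the fat cell transcripts relative to Fabp4 are given as a description, since the same contrast chose the members. For every 100 Fabp4 counts, the wild-type libraries together held 8.30 Adipoq counts (95% interval 6.70 to 10.2) and the mutant libraries 2.56 (1.02 to 5.36). Cidec stood at 3.15 per 100 in wild type (2.22 to 4.35) and 0.366 in mutant testes (0.00924 to 2.06). Cfd stood at 1.99 per 100 (1.27 to 2.98) against 0, with an upper limit of 1.36, so its intervals overlapped. Taken by library, the intervals of Cidec and of Cfd overlapped between each wild-type and each mutant library. By library, Adipoq stood at 5.51 and 11.8 per 100 in the wild-type pair and at 2.21 and 2.92 in the mutant pair, and the interval of wild-type replicate 1 (3.84 to 7.67) overlapped that of either mutant library. Pparg stood at 4.32 per 100 in wild type (3.20 to 5.70) and 8.42 in mutant testes (5.25 to 12.9), and its intervals overlapped. By library, Pparg stood at 5.06 and 3.38 per 100 in the wild-type pair and at 4.41 and 12.4 in the mutant pair. Mutant replicate 1 thus lay between the wild-type libraries, and only mutant replicate 2 lay above them. Endothelial cells and macrophages, which also hold Fabp4, were still represented: the sum of 8 endothelial markers was 303 and 307 CPM in the wild-type pair, 362 and 326 CPM in the mutant pair, with none called. The sum of 9 macrophage markers was 172 and 194 against 248 and 329 CPM, with 3 of 9 called higher. Their part in the Fabp4 level was not tested.

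Ratios between libraries of one genotype were not used to choose the members. Adipoq was 2.22-fold higher in wild-type replicate 2 than in replicate 1 (95% interval 1.46 to 3.43). Ratios of all tested genes between the 5th and 95th percentiles ran from 0.679 to 1.43, and Adipoq lay outside that range. The ranges of all genes here and below use a prior count of 2, which narrows ratios of genes with few reads. The ratios of single genes use none. Fabp4 did not share the difference of Adipoq, at 1.04 (0.922 to 1.16). Cidec and Cfd stood at 1.17 (0.586 to 2.34) and 1.10 (0.448 to 2.67). Between mutant replicates 1 and 2, Car3 had a ratio of 3.12 (2.86 to 3.41), below the 3.95 of Acta1 (3.80 to 4.11) and the 3.72 of Ckm (3.42 to 4.04), the muscle creatine kinase, and above the 1.36 of Mb, myoglobin (0.987 to 1.87). Lpl had a ratio of 1.50 (1.41 to 1.60) and Fabp4 1.42 (1.11 to 1.81), both higher in mutant replicate 1, against a range of 0.701 to 1.43 for the middle of all genes. Plin1 was at 0.851 (0.695 to 1.04) and Pparg at 0.503 (0.162 to 1.34). By these counting intervals, Adipoq stood apart from Fabp4 in the wild-type pair, and Car3 apart from Lpl, Fabp4, Plin1 and Pparg in the mutant pair. The intervals of Adipoq, Cidec and Cfd overlapped in the wild-type pair, as did those of Lpl and Fabp4 in the mutant pair. Adipoq, Cidec and Cfd had 7, 1 and 0 mutant counts, too few to compare the mutant libraries.

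**Figure D2:**
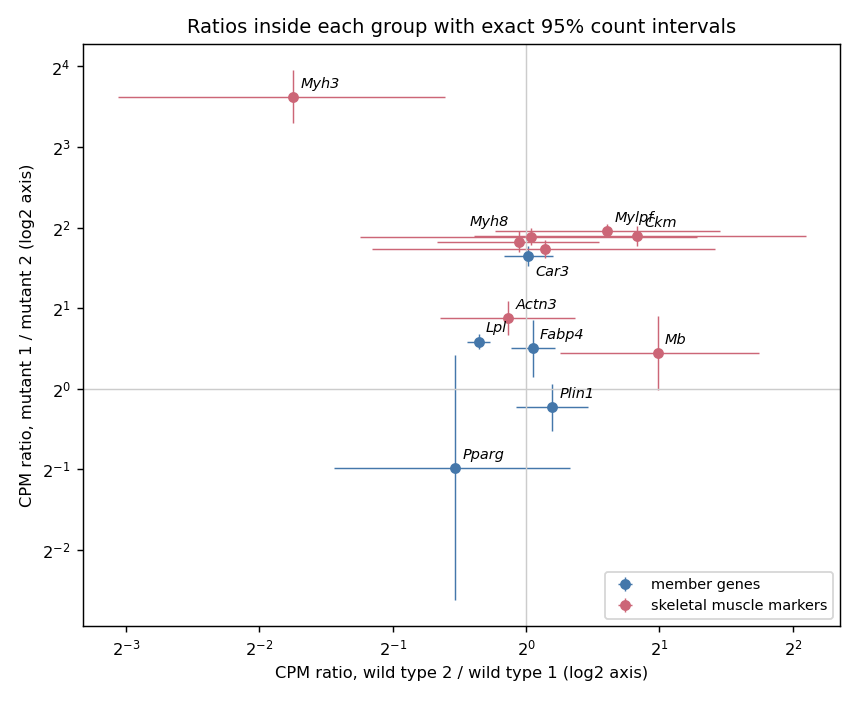
The horizontal axis is the CPM ratio of wild-type replicate 2 over 1 and the vertical axis that of mutant replicate 1 over 2, both on log2 axes, with bars for exact 95% count intervals. Shown are the 5 members and 8 skeletal muscle markers with at least 20 counts in each group (Myh8 stands with the unlabelled Tnnt3 and Tnni2); the muscle markers run on the vertical axis from Mb at 1.36 and Actn3 at 1.84 to Myh3 at 12.3, with Car3 at 3.12 between them, Fabp4 and Lpl just above Mb, and Plin1 and Pparg below 1.

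Most relatives of the members within their protein families were not called. Of 36 tested relatives in 9 families, none was called lower and 3 were called higher, while 2.52% and 3.15% of all genes were. Among the fatty acid-binding proteins, Fabp5, common in epithelia and macrophages, had a mean of 30.3 ± 4.85 CPM in wild type, 24.7 ± 1.99 CPM in mutant (SD, n = 2 each; edgeR adjusted p = 0.268), and Fabp3, the heart form, at 11.0 ± 2.18 and 10.6 ± 0.763 CPM (adjusted p = 0.909). The perilipins of most tissues, Plin2 and Plin3, had log2 fold changes of 0.02 ± 0.09 and -0.04 ± 0.08 (SE), and Plin5, of oxidative tissue, 0.62 ± 0.51, none called. Cidea, the CIDE protein of brown fat, read 30.2 and 22.0 CPM in the wild-type pair, 10.1 and 16.7 CPM in the mutant pair. Both mutant libraries were below both wild-type ones, but the log2 fold change of -0.94 ± 0.25 missed the threshold (adjusted p = 0.064) and passed it by DESeq2 (adjusted p = 0.0122) and without mutant replicate 2 (-1.38, adjusted p = 0.000541). With 626 against 372 counts, Cidea was far more abundant than Cidec.

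None of the other PPARs and uncoupling proteins was called. Ppara, of fatty acid burning tissues, had a log2 fold change of 0.37 ± 0.21 and the ubiquitous Ppard one of 0.51 ± 0.13, both positive and neither called (adjusted p = 0.309 and 0.061). Ucp2, a widespread relative of Ucp1, was at 490 ± 80.1 and 545 ± 59.1 CPM (SD, n = 2 each; adjusted p = 0.494), and Ucp3, of skeletal muscle, had 4 against 29 counts and was not called (adjusted p = 0.0536). Of 9 tested carbonic anhydrases related to Car3 none was called, with log2 fold changes between -0.51 and 0.90. The 8 tested relatives of adiponectin, which share its C1q-like domain, ranged from -0.17 to 0.40 with none called, and the endothelial lipase gene Lipg stood at 0.18 ± 0.25 (adjusted p = 0.708).

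In the alternative complement pathway, which Cfd starts, C3 and Cfp rose in mutant testes. C3, the central component that the pathway cleaves, rose 3.12-fold (34.5 ± 5.09 against 108 ± 18.4 CPM, adjusted p = 0.00444). Cfp, properdin, which stabilises the C3 convertase, rose 2.45-fold (adjusted p = 0.0291) but was no longer called when wild-type replicate 1 (log2 fold change 1.02, adjusted p = 0.148) or wild-type replicate 2 was left out (1.57, adjusted p = 0.0775). Cfb and Cfi were not called. The macrophage marker sum given above was higher in the same libraries, with 3 of 9 markers called, and the neutrophil marker sum was 2.85 and 2.84 CPM in the wild-type pair, against 14.7 and 15.3 CPM in the mutant pair; their part in these values was not tested.

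**Figure D3:**
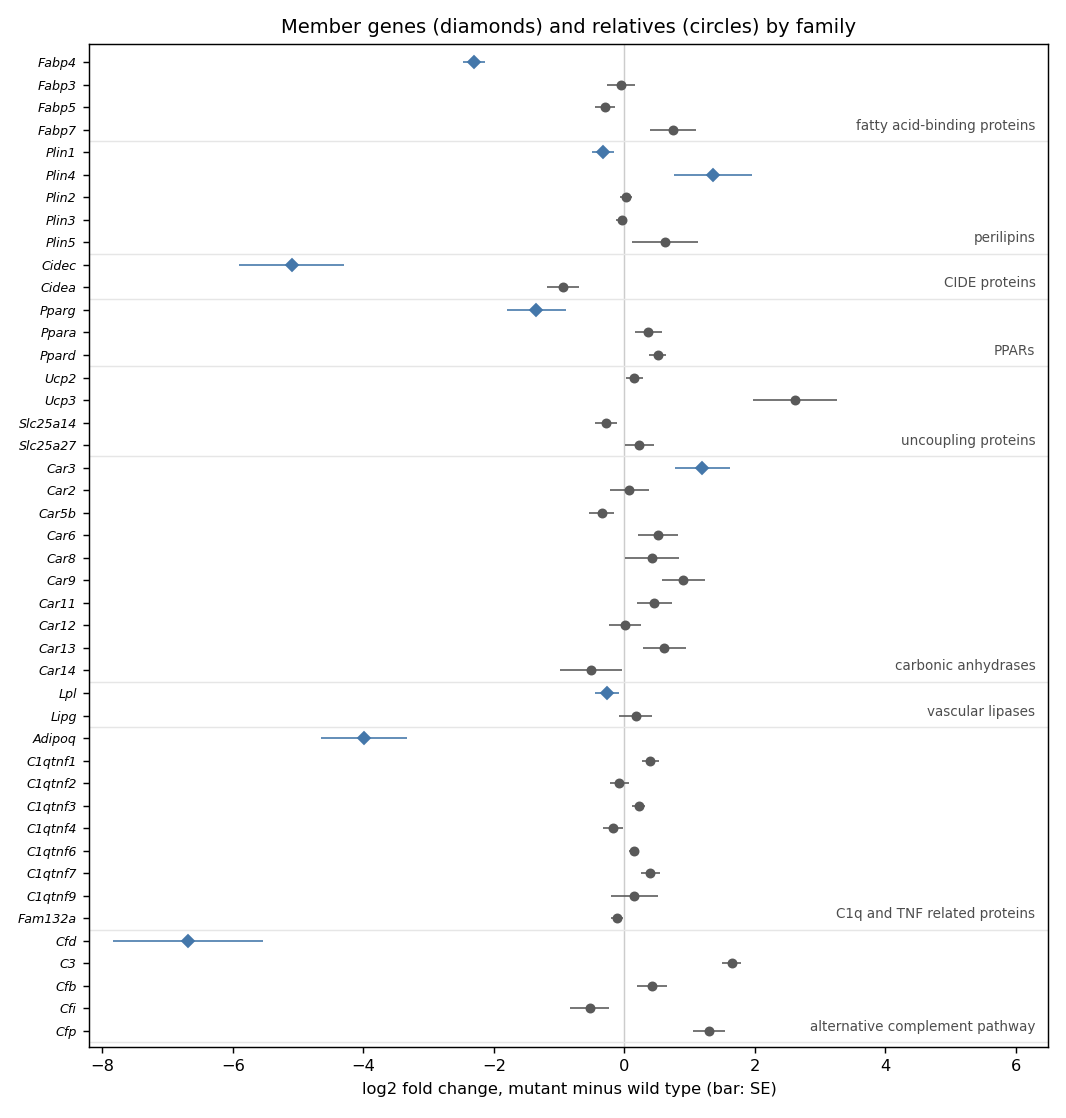
Log2 fold changes, mutant minus wild type, of the tested members (blue diamonds) and of relatives in their families (grey circles), with bars for the SE. Fabp4, Cidec, Adipoq and Cfd lie far to the left of their relatives, C3 and Cfp lie to the right, Ucp1 was not tested, and the fitted value of Cfd has no finite estimate behind it because its mutant counts are 0.

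Other genes of fat cell metabolism and formation were tested in 6 lists, put together by role and not by direction. Of 108 genes in the table, 92 were tested, 2 were called lower and 4 higher, which is 2.17% and 4.35% against 2.52% and 3.15% of all genes, so the share is near the background. Their median log2 fold change was 0.04, and 49 of the 92 lay within 0.25 of 0, against 8845 of all 14788 tested genes. Most calls over all genes were lost in the fits that left 1 wild-type library. The loss of a call there, here and below, is therefore not particular to these genes. None of these 6 genes was called without wild-type replicate 1 or without wild-type replicate 2.

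Among the adipokines and their receptors, 1 of 14 tested genes fell and none rose. The gene was Retn, resistin, a hormone that mouse fat cells secrete, with 22 and 16 counts in the wild-type pair, then 0 and 2 in the mutant pair. Its count ratio, wild type over mutant, was 21.5 (95% interval 5.57 to 184; edgeR adjusted p = 0.021), and it passed the filter through wild-type counts alone. It was no longer called when wild-type replicate 1 (adjusted p = 0.13) or wild-type replicate 2 (adjusted p = 0.0952) was left out. Lep, leptin, the hormone of fat stores, had 1, 0, 2 and 0 counts, too few to compare. Adipor1 and Adipor2, the receptors of adiponectin, chosen after their values were seen, had log2 fold changes of -0.40 and -0.10 and were not called (edgeR adjusted p = 0.0546 and 0.533); DESeq2 called Adipor1 lower.

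No gene of lipid synthesis or of the droplet machinery shared by many cells was called in the full fit. Log2 fold changes of the tested synthesis genes ran from -1.19 to 0.61. Those of droplet coats and lipolysis ran from -0.94 to 2.71. Alternative fits called some of these genes, lower as well as higher. Of 20 tested genes of fatty acid and triglyceride synthesis edgeR called none, with a median log2 fold change of -0.04; the most abundant were Scd2, a desaturase, at 1092 ± 45.3 and 1199 ± 64.9 CPM (SD, n = 2 each; adjusted p = 0.444) and Me1, which makes reducing power for lipid synthesis, at 531 ± 13.4 and 447 ± 21.5 CPM (adjusted p = 0.122). Of 13 tested genes of droplet coats and lipolysis none was called, with a median of 0.02. Chosen after its values were seen, Pck1, which supplies glycerol for triglyceride in fat cells and glucose in liver, was not tested by the full fit; it had 12 and 8 counts in wild type and 1 and 1 in mutant testes, a count ratio of 11.3 (95% interval 2.75 to 100). Fitm1, a droplet protein of striated muscle, also chosen in that way, was at 0.901, 0.588, 8.37 and 2.49 CPM, wild-type pair before mutant pair. It missed the threshold (edgeR adjusted p = 0.0675) and passed it by DESeq2 (0.00176), in the legacy edgeR fit (0.0447), with the replicate number as a block (0.0121), and without mutant replicate 1 (0.0498) or mutant replicate 2 (3.6e-06).

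Uptake genes gave 1 rise and 1 fall among 16 tested. Cav2, a caveolin of fat and endothelium, fell 1.49-fold, with 42.2 ± 3.82 CPM in wild type against 28.2 ± 2.34 CPM (SD, n = 2 each; adjusted p = 0.0404). The call did not hold when wild-type replicate 1, wild-type replicate 2 or mutant replicate 1 was left out (adjusted p = 0.156, 0.0873 and 0.11) nor with the replicate number as a block (adjusted p = 0.0571). Apoc2, the cofactor of lipoprotein lipase, had 2 and 1 counts in wild type and 24 and 18 in mutant testes, a count ratio, mutant over wild type, of 12.4 (95% interval 3.95 to 62.3; adjusted p = 0.0302). Its mutant counts alone took it past the expression filter. The call did not hold when wild-type replicate 1 (adjusted p = 0.196) or wild-type replicate 2 (adjusted p = 0.168) was left out. Gpihbp1, which carries Lpl across the endothelium, was at 7.44, 7.45, 8.92 and 6.45 CPM, wild-type pair before mutant pair; it was chosen after its values were seen and was not called (adjusted p = 0.966).

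Of 17 tested factors of fat cell formation, 2 rose and none fell. Zfp423, a factor of committed fat cell precursors, rose 1.85-fold (18.2 ± 1.37 against 33.7 ± 4.44 CPM, SD, n = 2 each; adjusted p = 0.0219), and Gata2, which holds precursors back from differentiating, rose 1.69-fold (27.5 ± 1.77 against 46.6 ± 7.43 CPM; adjusted p = 0.0277). Neither call held when wild-type replicate 1 (adjusted p = 0.115 and 0.131) or wild-type replicate 2 (0.0775 and 0.091) was left out. Both genes are also active in other mesenchyme. The sum of 10 fibroblast and preadipocyte markers was 7402 and 5565 CPM in the wild-type pair, 9164 and 9196 CPM in the mutant pair. A single collagen gene supplied 3948 and 2797 CPM of this sum in the wild-type pair, and 5146 and 4999 CPM in the mutant pair. None of the 10 was called, and their log2 fold changes ran from -0.84 to 0.81. The part of such cells in the Zfp423 and Gata2 values was not tested. Of 12 tested genes of brown fat and heat production, Cox8b, a respiratory chain subunit of brown fat and striated muscle, rose and none fell. Cox8b, which also passed the expression filter through mutant counts alone, had 2 and 3 counts in wild type and 107 and 63 in mutant testes, a count ratio, mutant over wild type, of 30.0 (95% interval 12.6 to 93.6; adjusted p = 0.0173), a call that did not hold when wild-type replicate 1 (adjusted p = 0.134) or wild-type replicate 2 (adjusted p = 0.093) was left out. In mutant replicate 1, the library with the higher muscle marker sum, Cox8b stood at a ratio of 2.42 over mutant replicate 2 (1.76 to 3.36). Car3, Fabp4 and Lpl were also higher in that library, and the part of muscle RNA in the Cox8b value was not tested.

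**Figure D4:**
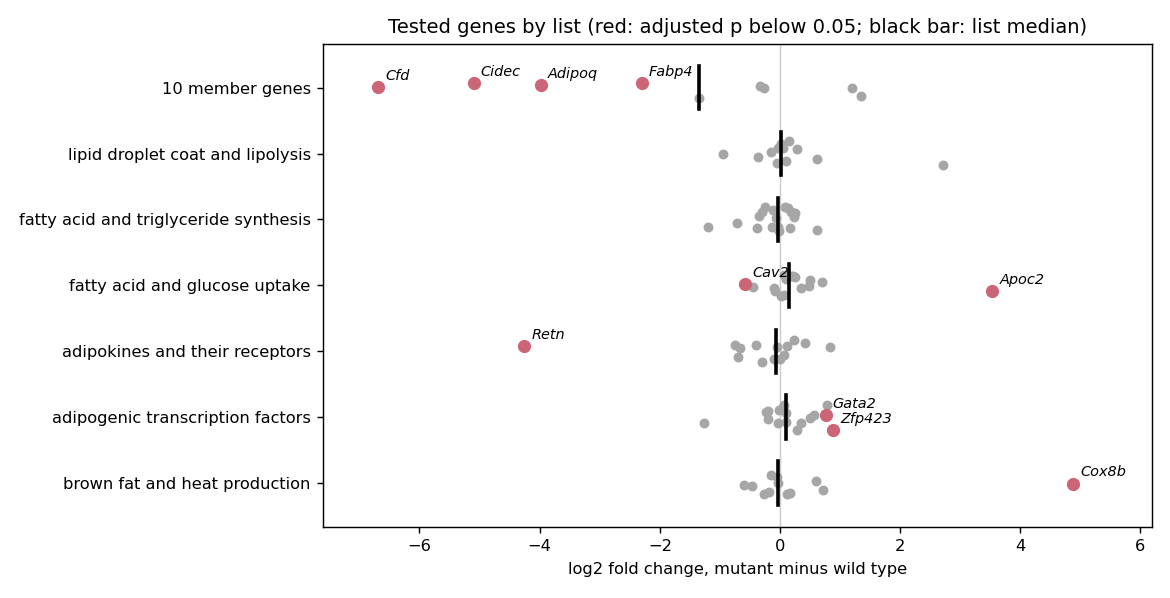
Each point is the log2 fold change, mutant minus wild type, of 1 tested gene, by list; red points are called and black bars are list medians. The bar of the members stands at -1.35 and those of the 6 other lists between -0.07 and 0.15, with Retn alone among their genes near the lowest members; vertical scatter within a row has no meaning, and the fitted value of Cfd is no bound.

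The genes nearest in profile to the members over the 4 libraries are given as a description, since the same contrast chose the members. Likeness was the Euclidean distance between log2 CPM profiles centred on each gene's mean. The 10 genes nearest to the median profile of the 9 tested members were Jakmip3, Xlr3a, Rbm44, Tex13, Sycp3, Zfp941, Cldn26, Gata1, Hormad2 and Tex16, at distances from 0.0381 to 0.200. The members did not form a single group, and this median lay apart from the 4 members called lower. Log2 fold changes of the 10 genes ran from -1.56 to -1.19, against -2.30 for Fabp4, the least lowered of those 4. Sycp3 and Hormad2 are known as genes of meiotic chromosomes and Gata1 as a factor of blood cells and Sertoli cells. The 5 nearest to Fabp4 were 4732415M23Rik, Ccdc108, Fam59b, Gm6320 and Gm5634, at distances from 0.199 to 0.324. The profiles used a prior count of 2, which shrinks differences of genes with few reads. Fitted log2 fold changes of the 5 ran from -4.44 for Gm6320 to -2.23 for Fam59b. Gm6320 had 14 and 10 counts in wild type and 1 and 0 in mutant testes, so its nearness to Fabp4 is uncertain. None of the 10 and 5 nearest genes is in the 6 lists of fat cell genes. Those lists hold only 92 of the 14788 tested genes, so nothing is read from that. The sum of 8 germ cell markers was 732 and 483 CPM in the wild-type pair, 253 and 228 CPM in the mutant pair, with 8 of 8 called lower; its part in the likeness was not tested.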

How the data were processed

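The authors deposited 1 table of read counts per gene, whole numbers for genes, handled as estimated counts since percentages close the same columns; rounding changed none. The submitters' processing notes name mm9, HTSeq, DESeq2, TopHat 1.4.0 and CASAVA 1.8.1 with no role. Strand setting, counting mode and annotation were not given in the sources used here. Reads in no gene (13.8 to 17.3% of counted reads) and ambiguous reads (0.602 to 0.726%) stayed out of library sizes and tests.

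Counts were fitted with edgeR 4.0.16 (R 4.3.3): trimmed mean of M values scaling, default filter (minimum count 10, total 15), quasi-likelihood F test on genotype with legacy and robust options off, two-sided, adjusted over all 14788 tested genes. Recovery of known fold changes was tested on simulated data. The simulation gave genes of like level the same spread, so it does not cover genes with a larger spread of their own. Nothing above rests on it. CPM uses the scaled library sizes. Count ratios have exact intervals from the binomial share. Positions and exon lengths come from GENCODE M1 on NCBIM37, the assembly named mm9. Alternatives were DESeq2 1.42.0, voom of limma 3.58.1, other scalings and filters, a legacy fit, a replicate block and leaving out each library.

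The members, lists and settings were chosen with earlier results of these data known. Named genes are the members, tested relatives, and the 10 and 5 nearest profiles. Each list adds up to 4 called genes with the smallest p, or else its 2 most abundant. Lep, Thra, Hdgfrp2 and single muscle markers are named outside this rule, and the text marks any other gene. Some genes are not reported here, though the counts of genes include them. The marker lists cover fibroblasts and preadipocytes, endothelium, macrophages, neutrophils, skeletal muscle, Sertoli, Leydig and germ cells, mesothelium and red blood cells. Of these, 3 of 10 Sertoli and 8 of 8 germ cell markers were called lower, 7 of 10 muscle, 5 of 5 mesothelium and 2 of 2 tested neutrophil markers higher, and none of 6 Leydig or 2 tested red blood cell markers was called.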

Additional observations from a re-analysis of the deposited data

How the results depend on the processing

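Fabp4, Adipoq, Cidec and Cfd were called lower in each of the 12 alternatives except those without wild-type replicate 1 or 2, where Fabp4 alone was and Cfd did not pass the filter. The count of members called lower ran from 1 to 5 with a library left out. The sign of each tested member's fold change held under all alternatives, and scaling by library size alone turned the sign of Car12, near 0. Over all genes, leaving out a library gave 40 to 477 lower and 34 to 818 higher calls; with no filter beyond 1 count there were 219 lower and 282 higher, and voom called 309 higher. Of the other fat cell genes, 0 to 6 were called lower and 0 to 8 higher with a library left out, 5 lower and 7 higher by DESeq2, and 1 lower with no filter. With the replicate number as a block, 338 genes were called lower and 512 higher, 4 members lower, and 1 other fat cell gene lower (Retn, without Cav2) and 5 higher. The numbers are not known to pair the libraries: same-numbered libraries deviated from their group means with a correlation of -0.0314 over 14788 genes. Depth limits the genes with few reads: among the members, Ucp1, Cfd and Cidec had 13, 24 and 39 counts over all 4 libraries, and Lep, Pck1 and Retn had 3, 22 and 40.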
